A study of Mus musculus with 6 samples.

Results

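The hypoxia-inducible factor (HIF) pathway was followed through 10 of the 48709 genes in the count table. They were chosen by name, with earlier results of these data known. They were Hif1a and Arnt, which encode the subunits of HIF-1, the oxygen-dependent regulators Egln1, Egln2, Egln3, Vhl and Hif1an, and the HIF target genes Bnip3, Ndufa4l2 and Ankrd37. RNA-Seq was performed on mouse G1E-ER4 cells, an erythroid line of embryonic stem cell origin in which GATA1 activity is placed under hormone control by joining it to part of the estrogen receptor. All 6 libraries came from this 1 line, and all cells received tamoxifen, which switches the fusion protein on and starts erythroid differentiation. The groups differed in the peptide. CHD4-APR cells (3 libraries) were given a Tat-linked peptide modelled on an aggregation-prone region of the chromatin remodeller CHD4, and CTRL cells (3 libraries) a Tat-linked run of alanines. Each peptide was used at 10 μM for 2 h before tamoxifen was added for 28 h. For tamoxifen, the culture description gives 100 nM and that of the experiment 100 μM. The labels name no change of oxygen. Nothing in them says that the 3 libraries of a group came from separate cultures, so the p-values measure the spread between these libraries, which may be technical. The question behind the comparison was what the CHD4-APR peptide does to the transcripts of differentiating erythroid cells.

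HIF-1 is a dimer of HIF1A and ARNT that binds hypoxia response elements and activates genes for glycolysis, mitochondrial turnover and oxygen supply. In oxygen, the EGLN prolyl hydroxylases mark HIF1A for the VHL ubiquitin ligase, which sends it to the proteasome, and the asparaginyl hydroxylase HIF1AN keeps the remaining HIF1A from its coactivators. Several of these genes are themselves HIF targets, among them Egln1, Egln3 and Bnip3. In red cell development the pathway is best known for the control of erythropoietin, and BNIP3L, the paralogue of BNIP3, for the removal of mitochondria from maturing cells. The libraries measured RNA, and HIF protein, which the hydroxylases and VHL control, was not measured in them.

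The promoter windows of the members are shown because HIF binds the cores ACGTG and GCGTG of the hypoxia response element. A window ran from 250 bases before to 50 bases after a RefSeq start site in GRCm38.p6. Both cores were searched on both strands, so that CACGTG counts once on each strand. Of the members, 9 had a window and Egln2 had 2, and no window was at hand for Ndufa4l2. At least 1 core was present in 8 of the 10 windows, compared with 43.8% of the 32851 windows of all genes and 63.0% of the 10736 windows of the genes tested below. ACGTG alone was present in 6 of the 10 windows, compared with 19.6% and 26.3%. The stretches below belong to Bnip3, Egln1 and Hif1a, the target, the regulator and the HIF subunit whose windows held ACGTG and whose RNA differed between the groups. Egln2 also met both conditions and is left out for length. For Egln1 and Egln2 the difference was not called after a correction for gene length and GC content, as given below. The stretches are read on the strand of the gene, and the capitals mark the cores, on either strand. The Bnip3 stretch is chr7:138909507-138909656 (minus strand, bases -150 to -1 from the start site), the Egln1 stretch is chr8:124949305-124949404 (minus strand, bases -150 to -51) and the Hif1a stretch is chr12:73907717-73907866 (plus strand, bases -150 to -1).
Bnip3: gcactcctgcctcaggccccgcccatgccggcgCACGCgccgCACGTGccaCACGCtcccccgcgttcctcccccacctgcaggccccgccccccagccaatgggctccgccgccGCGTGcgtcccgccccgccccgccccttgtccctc
Egln1: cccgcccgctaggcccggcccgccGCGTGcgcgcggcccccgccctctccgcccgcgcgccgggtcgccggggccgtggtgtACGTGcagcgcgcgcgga
Hif1a: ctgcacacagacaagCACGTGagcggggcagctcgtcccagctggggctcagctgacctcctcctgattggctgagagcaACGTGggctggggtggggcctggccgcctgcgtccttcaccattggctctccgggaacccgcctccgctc

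Bnip3 had the densest group of cores in the printed stretches, with ACGTG on both strands of 1 CACGTG at -108 and GCGTG at -117, -99 and -35. Hif1a had a CACGTG at -135 and a further ACGTG at -70, and Egln1 had ACGTG at -68 and GCGTG at -126. The main window of Egln2 held 3 matches of each core, that of Ankrd37 held 2 of each, that of Egln3 held 1 ACGTG and that of Arnt 1 GCGTG. No core was found in the windows of Vhl and Hif1an, which says only that these letters are not in those 300 bases. A match is a description of the sequence, and binding was not measured in these libraries.

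**Figure D1:**
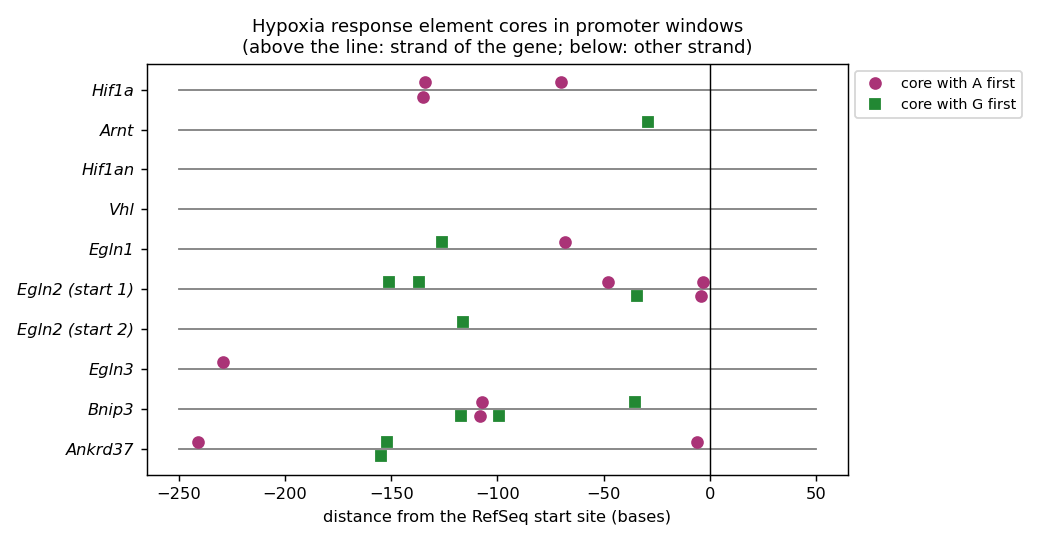
Positions of the hypoxia response element cores in the promoter windows of 9 members (10 windows, 1 per line), in bases from the RefSeq start site. Circles stand for the core that begins with A and squares for the core that begins with G, above the line on the strand of the gene and below it on the other strand. At least 1 core lies in 8 windows, and the lines of Vhl and Hif1an are empty.

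Total counts per library were 41687482 to 49784177. Levels are given as normalized CPM, counts relative to the total of the library, which was adjusted by edgeR's TMM factors. Of all genes, 12722 had enough counts to be tested with edgeR's quasi-likelihood test, and a false discovery rate (FDR, Benjamini-Hochberg adjustment over these genes) under 0.05 was taken as a call. Between the groups, 4871 genes (38.3%) were called, 2601 higher (20.4%) and 2270 lower (17.8%) with CHD4-APR. After a correction of each library for gene length and GC content the split was 1499 higher and 2063 lower, so values with this correction are given where they change a result. All 12 erythroid markers were detected in every library, among them Gata1, Klf1 and the globins, and their summed level, most of it from the globin genes Hba-a1, Hbb-bt and Hbb-bs, was 61461 to 65935 CPM in CTRL and 52508 to 55984 CPM in CHD4-APR. By gene, 3 of the 12 were called higher (Gata1 at 0.21, Tfrc at 0.26 and Epb42 at 0.34 on the log2 scale) and 4 lower (Klf1 and the 3 globins). With the length and GC correction Klf1 (0.01, FDR = 0.93), Hba-a1 (-0.04, FDR = 0.42) and Tfrc (-0.02, FDR = 0.75) were not called and Slc4a1 was called higher (0.11, FDR = 0.046). Gata1 (0.35), Epb42 (0.24), Hbb-bt (-0.18, from -0.32) and Hbb-bs (-0.19, from -0.33) kept their calls with it. Of 12 markers of other blood cells, 4 had no count (Mpo, Cd3e, Ms4a1 and Ptprc) and the sum was 50.3 to 53.5 CPM in CTRL and 44.2 to 48.9 CPM in CHD4-APR. Those above 1 CPM were Csf1r, Itga2b and Gp9, of which the platelet gene Gp9 was called lower (log2 fold change -0.31, edgeR FDR = 0.0099) but not with the correction (-0.11, FDR = 0.39). Of 8 markers of other tissues, 7 had no count and the sum reached 0.191 CPM at most. Fewer cells of a type and less RNA per cell cannot be told apart in such bulk libraries, and the part of the marker levels in the results was not tested.

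Among the 10 HIF genes, 9 could be tested and 6 were called, compared with 38.3% of all genes tested. Hif1a and Arnt were higher with CHD4-APR, and Egln1, Egln2, Bnip3 and Ndufa4l2 were lower. The groups did not overlap for 7 members, 3 higher and 4 lower, whereas they did not overlap for 49.9% of all genes tested. At least 1.5-fold and called were 3 members, Hif1a, Bnip3 and Ndufa4l2, compared with 4.23% of all genes. As the members were chosen with earlier results of these data known, these shares are a description and not a test of enrichment. The median log2 fold change of the 9 members was 0.10 and that of all genes -0.01. The subunit genes were higher, the called hydroxylase genes were lower by less than 1.5-fold, and 2 of the 3 target genes were lower by more.

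**Figure D2:**
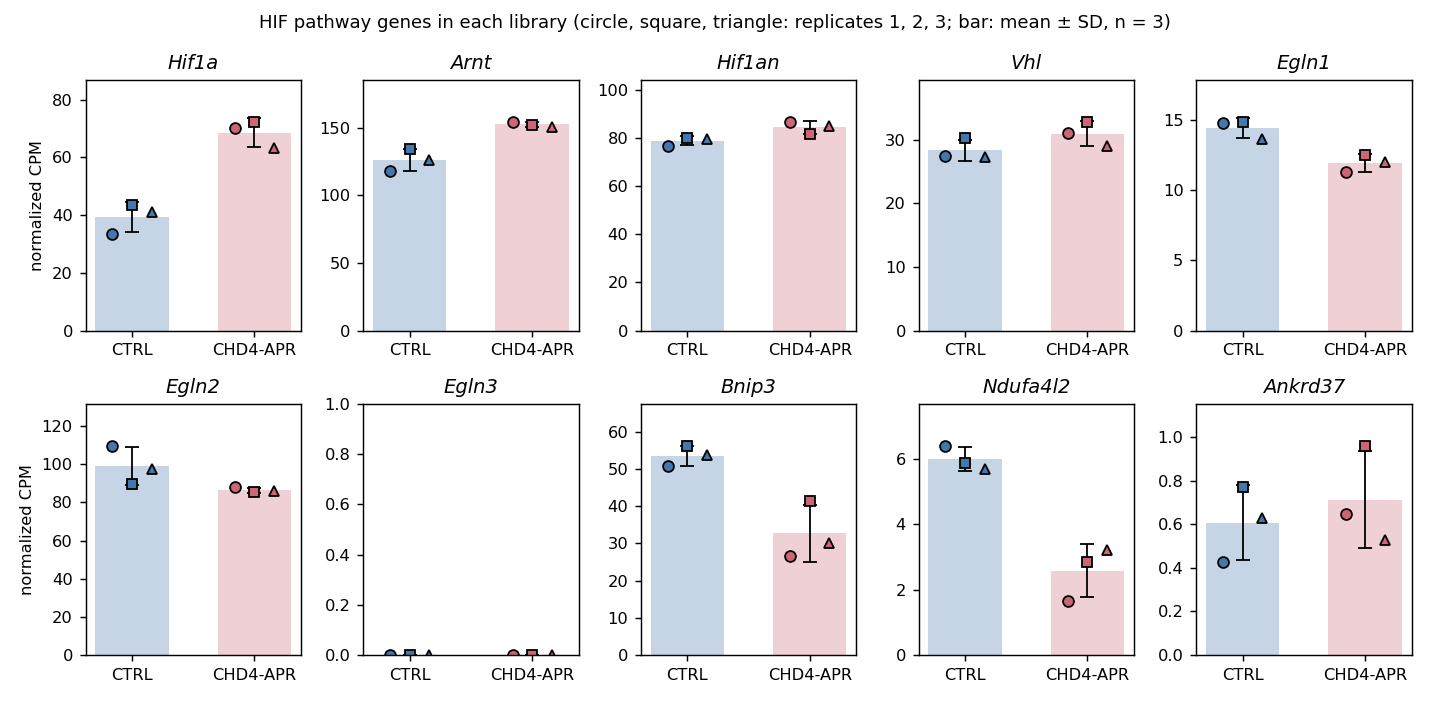
Normalized CPM (linear axes from 0) of the 10 HIF pathway genes in CTRL and CHD4-APR libraries. Bars are means with SD (n = 3 libraries), and circle, square and triangle are replicates 1, 2 and 3. The groups are apart in 7 panels, overlap for Vhl and Ankrd37, and Egln3 is at 0 throughout.

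Hif1a, the oxygen-regulated subunit (chromosome 12, 73901375 to 73947530 in GRCm38), was at 33.3, 43.4 and 40.9 CPM in CTRL 1 to 3 and at 70.3, 72.4 and 63.1 CPM in CHD4-APR 1 to 3. Every CHD4-APR library was above every CTRL library, and CTRL 1 was the lowest of the 6. The mean rose from 39.2 ± 5.23 to 68.6 ± 4.88 CPM (SD, n = 3), a log2 fold change of 0.80 (SE 0.079, edgeR FDR = 2.1e-06) or 1.75-fold. Ranked from the largest increase, Hif1a was at place 219 of 12722. After the length and GC correction the log2 fold change was 0.56 (FDR = 1.6e-05), below 1.5-fold. An antisense gene, Gm15283, shares 330 exonic bases (5.60%) with Hif1a and was at 0.0751 CPM in CTRL and 0.202 CPM in CHD4-APR. The library kit does not mark strand, so reads from the shared bases cannot be told apart.

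Arnt, the constant partner of the HIF alpha subunits (chromosome 3, 95434388 to 95497240), was at 118, 134 and 126 CPM in CTRL and at 154, 152 and 151 CPM in CHD4-APR. The groups did not overlap, and the CHD4-APR libraries lay close together. Its mean rose from 126 ± 8.09 to 152 ± 1.94 CPM (log2 fold change 0.27, SE 0.049, edgeR FDR = 3.9e-04). The increase of Arnt was 0.14 after the length and GC correction and was still called (FDR = 0.016).

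The prolyl hydroxylase genes were lower or not detected. Egln1, which encodes PHD2, the main oxygen sensor of the pathway (chromosome 8, 124908587 to 124949324), was at 14.8, 14.9 and 13.6 CPM in CTRL and at 11.3, 12.5 and 12.0 CPM in CHD4-APR. All CHD4-APR libraries were below all CTRL libraries. The mean of Egln1 fell from 14.5 ± 0.705 to 11.9 ± 0.636 CPM (log2 fold change -0.28, SE 0.077, edgeR FDR = 0.0092). With the length and GC correction the change was -0.16 and was not called (FDR = 0.12).

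Egln2, which encodes PHD1 (chromosome 7, 27158658 to 27166802), was at 110, 90.0 and 97.8 CPM in CTRL and at 87.9, 85.3 and 86.1 CPM in CHD4-APR. The CHD4-APR libraries were again the lower ones, but CTRL 2 was only slightly above the highest of them. The log2 fold change of Egln2 was -0.20 (SE 0.060, edgeR FDR = 0.015), from 99.2 ± 9.94 to 86.4 ± 1.34 CPM. This call was lost with the length and GC correction (-0.05, FDR = 0.45), and also without CTRL 1 (-0.12, FDR = 0.057), without CHD4-APR 2 (-0.19, FDR = 0.060) or without CHD4-APR 3 (-0.19, FDR = 0.051). Egln3, which encodes PHD3 and is a known HIF target (chromosome 12, 54178981 to 54203860), had 0 counts in all 6 libraries and was not tested. A count of 0 allows up to 3 counts, or 0.0608 to 0.0725 CPM in these libraries, for counting error only.

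Of the other regulators among the members, Vhl was called only with the length and GC correction, and Hif1an was not called with or without it. Vhl, the substrate receptor of the ubiquitin ligase (chromosome 6, 113623959 to 113631633), was at 27.4, 30.2 and 27.3 CPM in CTRL and at 31.0, 32.8 and 28.9 CPM in CHD4-APR. CTRL 2 was above CHD4-APR 3, so the groups overlapped. The log2 fold change was 0.13 (SE 0.066, edgeR FDR = 0.14), and it was 0.17 and called with the length and GC correction (FDR = 0.0497). Hif1an, also known as FIH (chromosome 19, 44562850 to 44576274), was at 76.7, 80.1 and 79.7 CPM in CTRL and at 86.8, 81.5 and 85.1 CPM in CHD4-APR. Its groups did not overlap, but CHD4-APR 2 was near the CTRL libraries and the log2 fold change of 0.10 (SE 0.046) had an edgeR FDR of 0.10. With the correction the log2 fold change of Hif1an was 0.06 (FDR = 0.30).

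Of the target genes, Bnip3 and Ndufa4l2 were lower with CHD4-APR and Ankrd37 was not called. Bnip3, a mitochondrial outer membrane protein that promotes mitophagy (chromosome 7, 138890836 to 138909519), was at 50.8, 56.3 and 53.7 CPM in CTRL and at 26.6, 41.5 and 30.1 CPM in CHD4-APR. Every CHD4-APR library was below every CTRL library, and CHD4-APR 2 was the highest of its group. The mean of Bnip3 fell from 53.6 ± 2.73 to 32.7 ± 7.75 CPM, or 1.64-fold (log2 fold change -0.71, SE 0.11, edgeR FDR = 9.6e-05), which placed it 132nd of 12722 from the largest decrease. Without CHD4-APR 1 its log2 fold change was -0.58 and was still called, but under 1.5-fold. The antisense gene Gm45507 shares 504 exonic bases (22.3%) with Bnip3 and was at 0.325 CPM in CTRL and 0.179 CPM in CHD4-APR, far below Bnip3.

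Ndufa4l2, a mitochondrial protein that HIF-1 induces and that lowers respiration in hypoxia (chromosome 10, 127514967 to 127517154), was at 6.40, 5.87 and 5.70 CPM in CTRL and at 1.66, 2.85 and 3.22 CPM in CHD4-APR. The groups were widely apart, and CHD4-APR 1 was the lowest library. Its mean fell from 5.99 ± 0.363 to 2.58 ± 0.818 CPM, or 2.32-fold (log2 fold change -1.21, SE 0.17, edgeR FDR = 4.8e-05), on 74 to 290 counts per library. This was the 8th largest decrease of the 12722 genes, and the log2 fold change of Ndufa4l2 was -0.97 without CHD4-APR 1. Shmt2, on the other strand, shares 32 exonic bases (2.92%) with Ndufa4l2 and was far more abundant, at 360 CPM in CTRL and 323 CPM in CHD4-APR. The part of reads from Shmt2 in the Ndufa4l2 counts was not tested.

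Ankrd37, a small ankyrin-repeat protein gene induced by HIF-1 in many cell types (chromosome 8, 45996902 to 46005707), was at 0.425, 0.770 and 0.628 CPM in CTRL and at 0.649, 0.959 and 0.529 CPM in CHD4-APR. The groups overlapped. Its 18 to 41 counts per library gave a wide error and it was not called (log2 fold change 0.21, SE 0.32, edgeR FDR = 0.64), and the sign turned without CHD4-APR 2 (-0.05, FDR = 0.93). Lrp2bp and Ufsp2, on the other strand, share 349 (22.7%) and 57 (3.70%) exonic bases with Ankrd37. They were at 0.174 and 46.5 CPM in CTRL and at 0.120 and 42.9 CPM in CHD4-APR, so Ufsp2 was far more abundant than Ankrd37. The part of reads from these genes in the Ankrd37 counts was not tested.

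**Figure D3:**
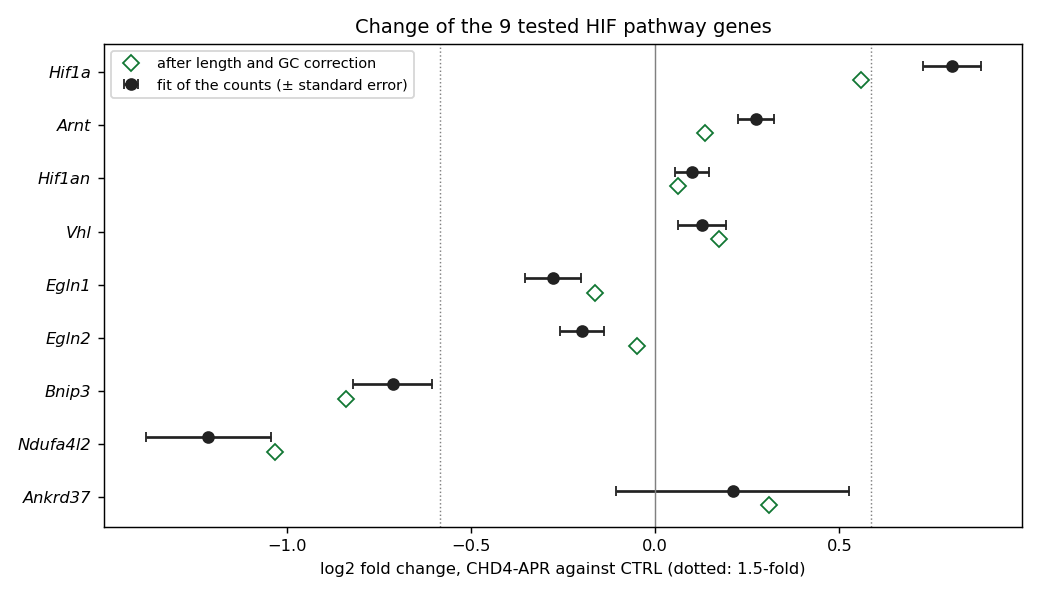
Log2 fold change of the 9 tested HIF pathway genes, CHD4-APR against CTRL (filled circles with standard error), and the same after the length and GC correction (open diamonds). Dotted lines mark 1.5-fold. Hif1a lies furthest to the right at 0.80 and Ndufa4l2 furthest to the left at -1.21, and with the correction Hif1a comes inside the line of 1.5-fold.

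The lower target genes were also compared with their closest paralogues within each library, which removes the library scaling. The log2 ratio of Ndufa4l2 to Ndufa4, the subunit of cytochrome c oxidase that NDUFA4L2 resembles, was -4.06, -4.14 and -4.05 in CTRL and -5.59, -4.88 and -4.79 in CHD4-APR. All CHD4-APR ratios were below all CTRL ratios, with means of -4.09 ± 0.049 and -5.09 ± 0.44 (SD, n = 3). The difference was -1.001 (exact permutation test, two-sided p = 0.1, Benjamini-Hochberg adjusted over 2 ratios 0.1), and 0.1 is the smallest p that 3 against 3 libraries allow. Ndufa4 itself fell from 102 ± 6.45 to 84.7 ± 4.40 CPM (log2 fold change -0.27, edgeR FDR = 0.0011). With the length and GC correction the log2 fold change was -1.03 for Ndufa4l2 and -0.41 for Ndufa4, closer together than without it. The ratio does not remove an effect of GC content, which was 60.7% for Ndufa4l2 and 40.3% for Ndufa4. The log2 ratio of Bnip3 to Bnip3l was -3.63, -3.58 and -3.61 in CTRL and -4.78, -4.17 and -4.63 in CHD4-APR. Those of CHD4-APR were again all lower, by -0.92 (exact permutation test, two-sided p = 0.1, adjusted 0.1). Bnip3l, the mitophagy receptor of maturing red cells, was the far more abundant gene of the pair and rose from 652 ± 21.8 to 742 ± 7.81 CPM (log2 fold change 0.19, edgeR FDR = 0.0022), although with the length and GC correction it was at 0.02 (FDR = 0.78).

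Levels of different genes were compared per exonic length, as RPKM (CPM per kilobase of exon). In CTRL, Egln2 was the highest member at 35.4 ± 3.55 RPKM, followed by Bnip3 (23.7 ± 1.204), Arnt (15.7 ± 1.01), Hif1an (11.9 ± 0.284), Vhl (9.44 ± 0.550), Hif1a (6.65 ± 0.887), Ndufa4l2 (5.47 ± 0.332), Egln1 (4.02 ± 0.196) and Ankrd37 (0.395 ± 0.113), with Egln3 at 0 (RPKM, mean ± SD, n = 3). Hif1a and Ndufa4l2 were the only neighbours in this order whose libraries overlapped. In CHD4-APR, the order was Egln2 (30.9 ± 0.478), Arnt (19.0 ± 0.243), Bnip3 (14.5 ± 3.42), Hif1an (12.8 ± 0.415), Hif1a (11.6 ± 0.828), Vhl (10.3 ± 0.651), Egln1 (3.32 ± 0.177), Ndufa4l2 (2.35 ± 0.747) and Ankrd37 (0.463 ± 0.144), with Egln3 again at 0 (RPKM). Here the libraries of Bnip3 overlapped with those of Hif1an, and those of Hif1a with those of Vhl. Hif1a was thus at the 6th place in CTRL and the 5th in CHD4-APR, or the 4th with the longest transcript as the length, where its CHD4-APR libraries overlapped with those of Hif1an. Bnip3 was at the 2nd and the 3rd place. Among the hydroxylases, Egln2 had the highest level per length in both groups. Of the other HIF alpha and beta subunits, Hif3a was at 1.22 ± 0.0801 RPKM in CTRL and 1.51 ± 0.0477 RPKM in CHD4-APR, and Epas1 and Arnt2 had 1 count each over all libraries.

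**Figure D4:**
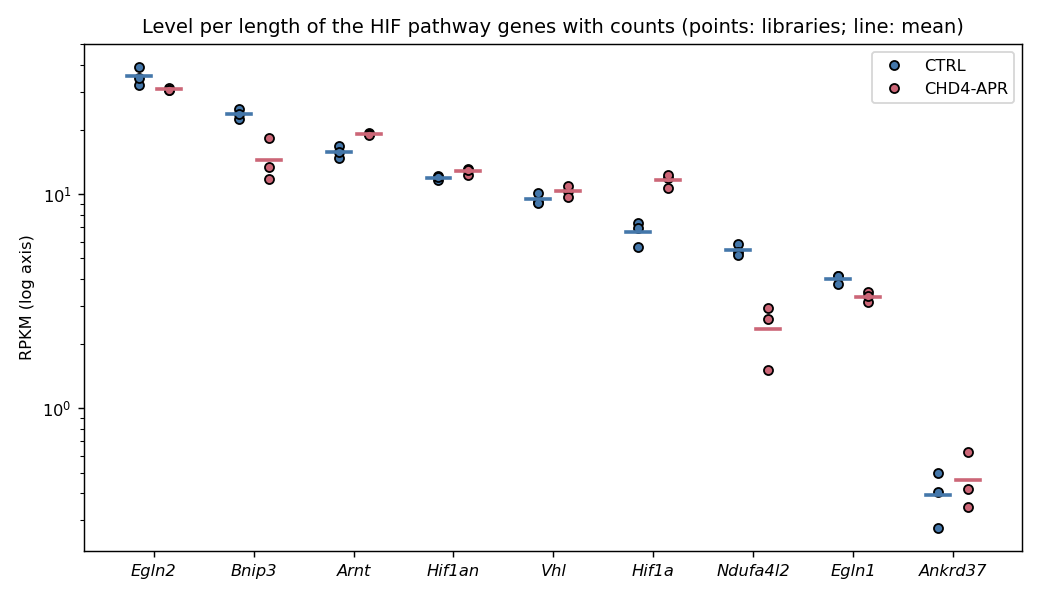
Level per exonic length (RPKM, log axis) of the 9 members with counts, ordered by the CTRL mean. Points are libraries (n = 3 per group), and short lines are means. Egln2 is highest in both groups, and the CHD4-APR points lie above CTRL for Hif1a and below it for Bnip3 and Ndufa4l2.

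The rest of the pathway was read from 4 lists, also chosen with earlier results of these data known. They are described by counts and medians beside the 20.4% of all genes called higher and 17.8% called lower, and no set test was run. Of 8 other HIF subunits and coactivators, 6 were tested, 4 were higher, 1 was lower, and the median log2 fold change was 0.29, whereas that of all genes was -0.01. Ep300, the acetyltransferase that HIF1A recruits, was at 119, 132 and 139 CPM in CTRL and at 182, 191 and 177 CPM in CHD4-APR. This increase was 0.50 on the log2 scale (SE 0.054, edgeR FDR = 4.7e-06), with no overlap of the groups. The coactivator gene Ncoa1 (0.41, SE 0.068, edgeR FDR = 2.0e-04) and Hif3a (0.31, SE 0.086, edgeR FDR = 0.0088) also rose. Cited4, whose product competes with HIF1A for the coactivators, fell by 0.32 (SE 0.064, edgeR FDR = 0.0010), and was at -0.16 with the length and GC correction (FDR = 0.013). The list thus does not hold activators of HIF alone, and neither its counts nor its median stand for them. With the length and GC correction 4 were again higher and 1 lower, with Cited2 among the higher ones in place of Crebbp.

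Of 12 partners in HIF turnover, all were tested, 3 were higher and 6 were lower, with a median log2 fold change of -0.08, and 2 were higher and 4 lower with the length and GC correction. Without CHD4-APR 2, 3 were higher and 3 lower. Of the genes of the VHL ligase on this list, Elob, Eloc and Rbx1 were lower and Cul2 was higher. Elob, for elongin B, was at 432, 362 and 379 CPM in CTRL and at 299, 305 and 316 CPM in CHD4-APR, and fell by 0.35 (SE 0.056, edgeR FDR = 1.5e-04). Rbx1, its RING subunit, fell by 0.21 (SE 0.056, edgeR FDR = 0.0076), whereas the scaffold Cul2 was higher at 0.20 (SE 0.060, edgeR FDR = 0.014). With the length and GC correction Cul2 was at -0.01 and not called (FDR = 0.90), while Elob and Rbx1 were still lower at -0.17 and -0.39. Eloc, for elongin C, named after its values were seen, was at -0.14 (SE 0.051, edgeR FDR = 0.035) with overlapping groups, and at -0.36 with the correction (FDR = 9.0e-05). The chaperone gene Hsp90aa1 rose by 0.27 (SE 0.048, edgeR FDR = 3.3e-04), or 0.15 with the correction (FDR = 0.0062), and P4htm, a transmembrane prolyl hydroxylase, fell by 0.26 (SE 0.086, edgeR FDR = 0.025) but was not called with the correction (FDR = 0.19).

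Among 43 HIF targets outside glycolysis, 23 were tested, 6 were higher (background 20.4%) and 8 were lower (background 17.8%), with a median of 0.01. The balance rested on single libraries: 6 were higher and 4 lower without CHD4-APR 1, 6 and 5 without CHD4-APR 3, and 6 and 6 without CTRL 2. The other 20 had too few counts, among them Car9, Epo, Adm and Angptl4. Fam162a, a mitochondrial gene, was at 58.9, 58.5 and 57.1 CPM in CTRL and at 35.3, 42.3 and 41.7 CPM in CHD4-APR. All CHD4-APR libraries were below CTRL, and Fam162a fell by 0.55 (SE 0.063, edgeR FDR = 8.2e-06). Higd1a, a mitochondrial inner membrane gene, fell by 0.45 (SE 0.059, edgeR FDR = 2.6e-05) and the lipid droplet gene Plin2 by 0.24 (SE 0.051, edgeR FDR = 0.0013). The largest increases were those of Wsb1, a ubiquitin ligase receptor gene (0.41, SE 0.069, edgeR FDR = 2.5e-04), the histone demethylase gene Kdm3a (0.29, SE 0.048, edgeR FDR = 2.1e-04) and the transferrin receptor gene Tfrc (0.26, SE 0.064, edgeR FDR = 0.0039). Of these 3 increases, only that of Wsb1 was called with the length and GC correction, under which 1 target of this list was higher and 6 were lower, and Tfrc was at -0.02.

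The targets in glycolysis were mostly lower. Of 19, 18 were tested, 13 were lower, 1 was higher and the median was -0.27, and with the length and GC correction 12 were lower and 1 was higher. Ldha, for lactate dehydrogenase A, was at 132, 129 and 121 CPM in CTRL and at 53.5, 78.7 and 71.4 CPM in CHD4-APR. The groups were far apart, with CHD4-APR 1 lowest, and the decrease of Ldha was 0.91 on the log2 scale (log2 fold change -0.91, SE 0.093, edgeR FDR = 2.8e-06) or 1.88-fold. Tpi1 (-0.56, SE 0.061, edgeR FDR = 4.7e-06) and Eno1 (-0.52, SE 0.059, edgeR FDR = 6.8e-06) were also lower. Slc2a3, a glucose transporter gene, was at 234, 240 and 238 CPM in CTRL and at 315, 328 and 321 CPM in CHD4-APR, the opposite direction (0.44, SE 0.041, edgeR FDR = 1.3e-06). Cores of the hypoxia response element were present in 22 of 27 promoter windows of this list and in 35 of 45 windows of the targets outside glycolysis, but also in 7 of 8 windows of the turnover partners, in 4 of 7 windows of the other subunits and coactivators and in 63.0% of those of all genes tested.

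**Figure D5:**
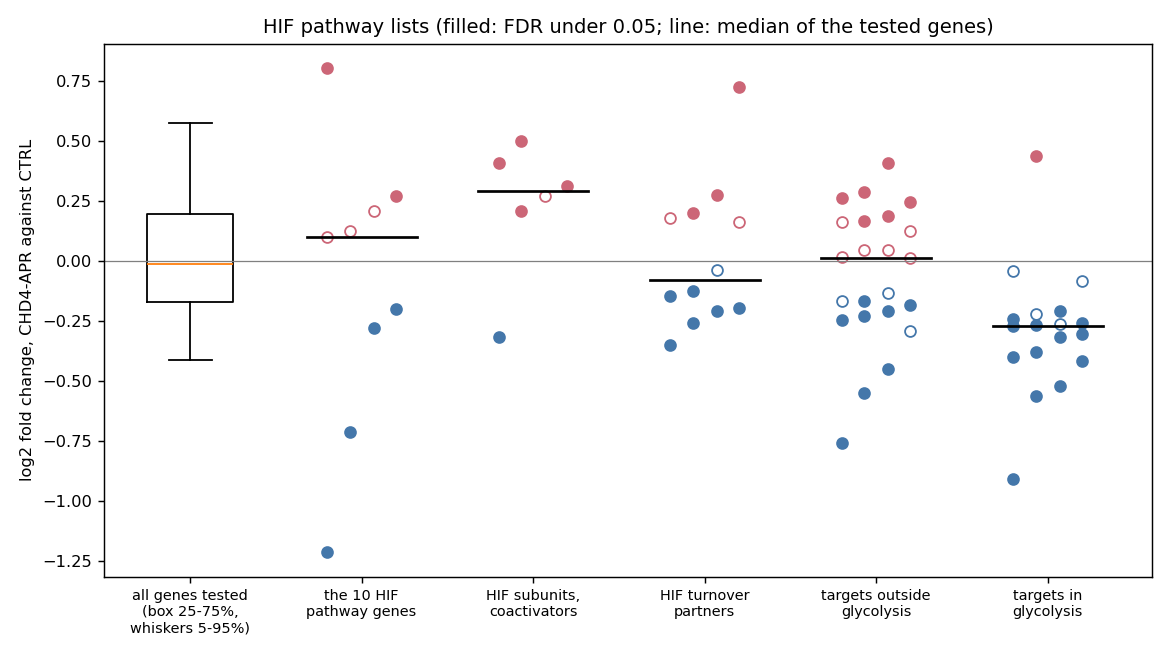
Log2 fold changes, CHD4-APR against CTRL, of the tested genes of the HIF pathway lists, with a box for all genes tested (25 to 75%, whiskers 5 to 95%). Filled points have an FDR under 0.05, and the black line is the list's median. The glycolytic targets lie mostly below 0 (13 of 18 called lower), and the targets outside glycolysis lie on both sides (6 called higher, 8 lower).

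The genes whose levels were most like those of Hif1a over the 6 libraries were Far1, Pcmtd2 and Golph3 (Pearson r of log2 CPM 0.9997, 0.9996 and 0.9996), out of 9909 genes compared. For Ndufa4l2 they were Calm3, Nudt18 and Ilkap (r 0.9969, 0.9965 and 0.9947). The 6 points fall into the groups compared here, and 1448 genes had an r above 0.95 with Hif1a and 357 with Ndufa4l2, so these are a description of shared patterns only.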

How the data were processed

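The 6 libraries were poly(A)-selected RNA of G1E-ER4 cells, grouped by the peptide in the labels (CTRL and CHD4-APR, 3 each). The authors trimmed reads with Cutadapt, aligned to GRCm38 with STAR 2.7.10a and ran featureCounts for the Ensembl genes. The deposited values are raw counts. The strand and multiple-mapping settings of the counting are not given in the sources used here, so values of paralogues and overlapping genes are uncertain. The table holds 2 further count columns, left out because no sample has their name. Genes were named and located with GENCODE M21 (GRCm38), which held 48349 of 48709 identifiers. Promoter windows came from RefSeq, whose start sites can differ from those of GENCODE.

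Counts were analysed with edgeR 4.0.16 in R 4.3.3 (filterByExpr, TMM, quasi-likelihood F-test, Benjamini-Hochberg adjustment over 12722 genes). RPKM used the union of exons. For the length and GC correction, the log2 CPM of each gene was taken as its deviation from the gene's mean over the libraries. A smooth of this deviation on gene length and GC content was fitted per library (mgcv 1.9.3) over the 12677 genes with both values. The fitted trend entered the edgeR fit as an offset. The alternatives were DESeq2 1.42.0, limma-voom (limma 3.58.1), other scalings, filters and thresholds, a replicate block, and leaving out each library in turn. The procedures were tested on simulated data.

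The genes named are the 10 members, their paralogues, the 3 largest called changes in each direction in each list (mean log2 CPM of 1 or more), the 3 genes most like Hif1a and Ndufa4l2, and genes that overlap a member. Outside this rule are the marker genes, the untested targets, Crebbp and Cited2, and those said to be named after their values were seen. The members and lists were chosen with earlier results of these data known. Replicate pairs differed by more than the sampling noise (chi-square over degrees of freedom 4.64 to 15.7), so none was a copy of another.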

Additional observations from a re-analysis of the deposited data

How the results depend on the processing

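Under 15 to 16 alternatives, the number of genes called was 3250 to 5214 and that of the members called 5 or 6. The 3250 genes were those at an FDR under 0.01, and at 0.05 the lowest number was 3562, with the length and GC correction. Hif1a (log2 fold change 0.56 to 0.88), Arnt (0.14 to 0.32), Bnip3 (-0.91 to -0.58) and Ndufa4l2 (-1.41 to -0.97) kept their direction and call under every alternative run. The members called were 5 with the length and GC correction (with Vhl, without Egln1 and Egln2), without CTRL 1, CHD4-APR 2 or CHD4-APR 3, and at an FDR under 0.01, each of the last 4 without Egln2. Egln1 was between -0.32 and -0.16 and Egln2 between -0.27 and -0.05. Ankrd37 turned to -0.054 without CHD4-APR 2, and over the libraries left out in turn was -0.054 to 0.43. The length and GC correction moved the median of the turnover partners to -0.027 and that of the targets outside glycolysis to -0.056, with 7 of the latter called. The cause was not tested. With a library left out, the median of the glycolytic targets was -0.34 to -0.24 and that of the subunits and coactivators 0.26 to 0.36. With total counts alone, the groups did not overlap for 6 members, and Egln2 was the one lost. The order of levels per length was the same for 10 of 10 members with TPM in both groups and with the longest transcript in CTRL. In CHD4-APR 8 of 10 kept their place with the longest transcript, where Hif1a (mean 14.5) came before Hif1an (13.6). The planned ratio of Egln3 to Egln1 was not run, as Egln3 had no counts.

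The libraries of the groups share replicate numbers. The deviations of same-numbered libraries from their group means correlated at 0.066, 0.049 and -0.034, and not every library correlated best with its own number, so the numbers were not taken as pairs. With a replicate block 5214 genes and 6 members were called. With the block and the length and GC correction together, the medians of the turnover partners and the targets outside glycolysis were -0.027 and -0.055, and 9 of the latter were called. Ankrd37 rests on 18 to 41 counts per library, and Egln3 had none, which allows up to 0.0608 to 0.0725 CPM.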

Other observations

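The spread within the CHD4-APR group was looked at after the values had been seen. Of the 23 tested HIF targets called lower, in both target lists and the members, 20 (87%) were lowest in CHD4-APR 1, whereas 1087 of the 2270 genes called lower (47.9%) were. The SD of log2 CPM was larger in CHD4-APR than in CTRL for 18 of these 23 targets (78.3%) and for 889 of the 2270 genes (39.2%), and the median SD was 0.0613 in CTRL and 0.106 in CHD4-APR for the targets, compared with 0.0726 and 0.0544 for the 2270 genes. Hk2, a hexokinase gene outside the rule for named genes, picked after its values were seen and not called (log2 fold change -0.26, edgeR FDR = 0.37), was at 3.66, 3.73 and 3.86 CPM in CTRL and at 1.81, 4.61 and 2.99 CPM in CHD4-APR.

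Siah2, a ubiquitin ligase gene that acts on the prolyl hydroxylases, and the collagen lysyl hydroxylase gene Plod2 are below the level required for naming and were chosen after their values were seen. Siah2 was at 1.46, 1.28 and 1.28 CPM in CTRL and at 1.88, 2.60 and 2.18 CPM in CHD4-APR (log2 fold change 0.73, SE 0.18, edgeR FDR = 0.0051). Plod2 was at 1.35, 1.72 and 1.50 CPM in CTRL and at 0.850, 1.17 and 0.699 CPM in CHD4-APR, the lower group (1.69-fold, edgeR FDR = 0.015).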
